A study of Mus musculus with 10 samples.

Results

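Tie1 and Tek encode the TIE receptors of endothelial cells, and the plate mice of this study carried floxed Tie1 alone or floxed Tie1 and Tek. The 2 genes were chosen by name, not by their values, out of 42612 genes joined across 8 Smart-seq plates and 32285 genes in 2 10x libraries. Tie1 (ENSMUSG00000033191) lies on the minus strand of chromosome 4 at positions 118471191 to 118490061 of GRCm38, a span of 18.9 kb whose longest transcript has 22 exons. Tek (ENSMUSG00000006386), which encodes Tie2, lies on the plus strand of the same chromosome at 94739289 to 94874976, a span of 135.7 kb with 23 exons in its longest transcript. The exons removed by Cre are not given in the sources used here, and the counts cover all exons of a gene, so a transcript that has lost some exons can still be counted.

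Tie2 is the receptor for the angiopoietins. Angpt1 activates it, and Angpt2 acts as an agonist or an antagonist depending on context. Tie1 binds no angiopoietin with high affinity on its own, but forms complexes with Tie2 and modulates its signaling through PI3K, Akt and FOXO1. In blood vessels this pathway stabilizes the endothelium, and in lymphatic vessels it is needed for the growth and maturation of capillaries, collecting vessels and valves.

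The study sorted lymphatic endothelial cells (LECs) from mouse ear skin into plates, by CD31 and podoplanin and against CD45, CD11b and Ter119, and sequenced the RNA of each well separately. All 8 plates came from pups given 4-hydroxytamoxifen (4-OHT) on P1 to P5, the controls included. According to the methods the cells were analyzed on P28, whereas the age field of the labels repeats the days of injection. Each of the 4 groups had 2 plates. Tie1fl/fl and Tie1Tie2fl/fl mice lacked Cre, whereas Tie1iDLEC and Tie1Tie2iDLEC mice carried the same floxed alleles and Prox1-CreERT2, a tamoxifen-activated Cre driven by Prox1, the transcription factor that specifies LECs. Replicate 1 of Tie1fl/fl and of Tie1iDLEC was labelled female and the other plates male, and how many mice went into each plate is not stated, so p-values below measure only the spread between plates, which may be technical. The 10x libraries held CD31-sorted ear skin cells of wild-type C57Bl/6j mice given an Ang2-blocking antibody (Ang2Ab) or mouse IgG1 at 20 mg/kg from P16 to P21, 1 library per treatment. The titles of both libraries contain the word control, and the treatment field, which gives the Ang2 antibody for 1 of them, was followed here.

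Of 3048 wells, 2681 were kept as LECs by clustering (284 to 359 per plate), and 2562 of these held at least 50000 counts. Counts summed over the LEC wells ranged from 67815438 to 104849697 per plate. The LEC label fitted its markers. Among the wells of at least 50000 counts, Pecam1 (CD31) was read in 100%, Prox1 in 98.8% to 100%, Lyve1 and Flt4 in 99.7% to 100% and Pdpn in 83.6% to 100% on every plate, and the leukocyte gene Ptprc in at most 1.76%. The plates fell into 2 table layouts, one by gene symbol (Tie1fl/fl 1, Tie1iDLEC 1, Tie1Tie2fl/fl 2 and Tie1Tie2iDLEC 2) and one by Ensembl identifier, and each layout held 1 plate of each group. Wells left out as fibroblast-like were shallow and not free of LEC RNA, with Tie1 at 2145 to 2813 CPM on Cre-negative and 273 to 894 CPM on Cre-positive plates.

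Tie1 was high in nearly every control LEC. In about 1 of 2 LECs that carried Cre it was under 100 CPM (counts-per-million, of the well's total), a limit chosen after the values had been seen. How low these wells lay differed by plate, since wells under 10 CPM made up 1.92% and 56.1% of the Tie1iDLEC plates and 41.9% and 24.0% of the Tie1Tie2iDLEC plates. Median Tie1 per well was 2285 and 2744 CPM in Tie1fl/fl, 2588 and 2625 in Tie1Tie2fl/fl, 122 and 7.21 in Tie1iDLEC, and 54.8 and 45.6 in Tie1Tie2iDLEC. The 4 Cre-positive medians all lay below the 4 Cre-negative medians, and how many of all genes separate in this way was not counted. The spread within a plate told more than the median. On Tie1iDLEC 2 the lower quartile was 0 CPM and the upper quartile 1073 CPM, and on Tie1Tie2iDLEC 1 these quartiles were 3.21 and 1207 CPM, whereas on Tie1Tie2fl/fl 2 they were 1738 and 3604 CPM. The tenth of wells with the most Tie1 reads held 24.3% to 30.7% of the plate's Tie1 reads on Cre-negative plates and 44.9% to 64.5% on Cre-positive plates.

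**Figure D1:**
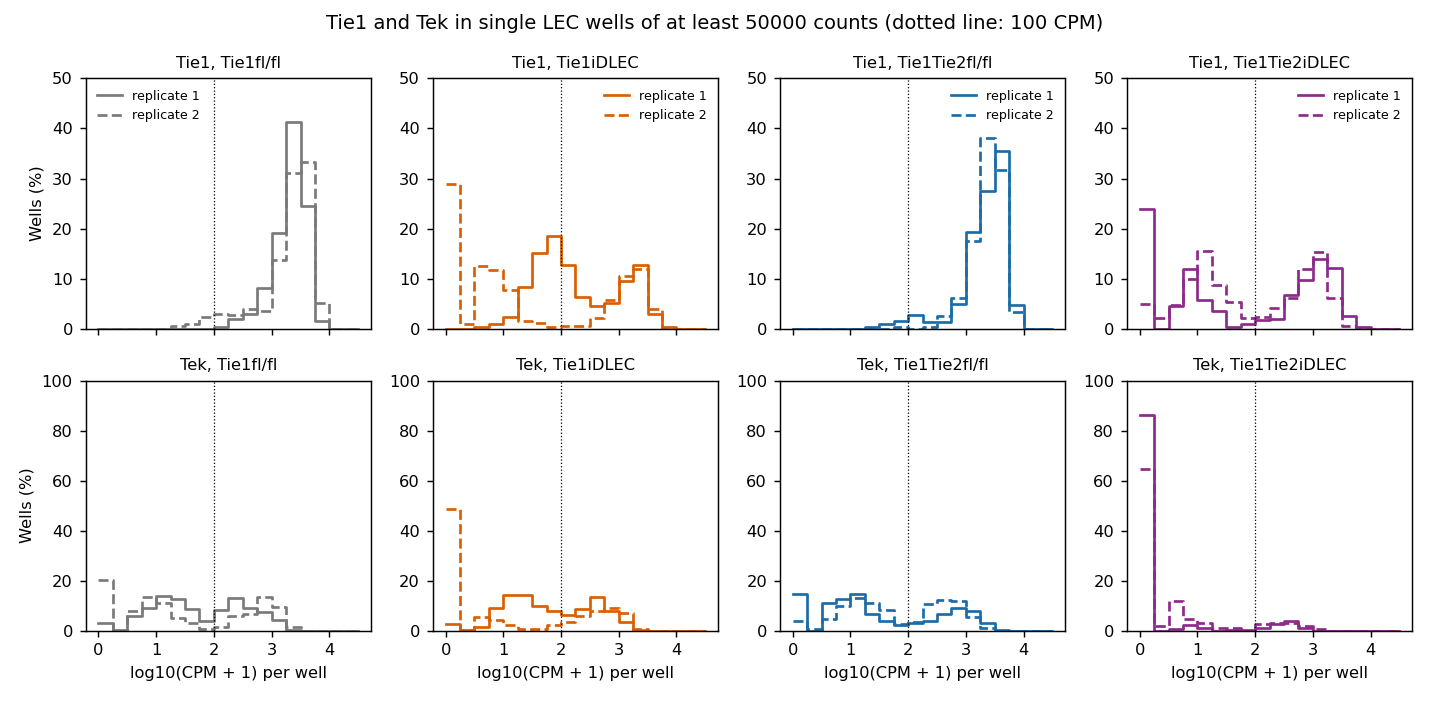
Distribution of Tie1 (top) and Tek (bottom) over LEC wells of at least 50000 counts, with log10(CPM + 1) per well on the x axis and the percent of wells on the y axis; columns are the 4 groups, lines the 2 plates of a group, and the dotted line marks 100 CPM. Tie1 formed a single high peak in Cre-negative plates and a high and a low group of wells in Cre-positive plates, and Tek was low in most wells of every plate.

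The share of wells without Tie1 was measured in 2 ways. After every well had been thinned to 50000 counts, wells without a single Tie1 read made up 0%, 0.297%, 0% and 0% of the Cre-negative plates (Tie1fl/fl 1 and 2, Tie1Tie2fl/fl 1 and 2), 4.17% and 51.9% of the Tie1iDLEC plates, and 39.6% and 27.3% of the Tie1Tie2iDLEC plates. Cre-positive plates thus averaged 30.7% ± 20.4 (SD, n = 4) against 0.0742% ± 0.148 (SD, n = 4), and the groups did not overlap (two-sided exact permutation test over plates, p = 0.0286, the smallest that 4 plates against 4 can give). Of 19927 genes tested, 131 (0.657%) had a higher share of such wells on all 4 Cre-positive plates than on all 4 Cre-negative plates. The permutation test took plates as exchangeable, although Cre-positive and Cre-negative plates of the same replicate number in a strain shared table layout and labelled sex. Keeping all wells with at least 1000 genes gave a difference of 31.4 percentage points in place of 30.7. Tie1iDLEC 1 stood apart from the other Cre-positive plates by this measure. The low wells of Tie1iDLEC 1 kept a few reads, and 0 of its LEC wells lacked Tie1 altogether before thinning, against 29.6% on Tie1iDLEC 2, 24.2% on Tie1Tie2iDLEC 1 and 4.90% on Tie1Tie2iDLEC 2.

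A threshold of 100 CPM, chosen after the per-well values had been seen, placed that plate nearer to the others. Tie1 was under 100 CPM in 45.5% and 64.8% of wells on the Tie1iDLEC plates and in 50.9% and 53.4% on the Tie1Tie2iDLEC plates. On the Cre-negative plates it was under 100 CPM in 0% and 4.15% of wells for Tie1fl/fl and in 2.80% and 0.308% for Tie1Tie2fl/fl. The averages were 53.6% ± 8.12 (SD, n = 4) with Cre and 1.82% ± 2.00 (SD, n = 4) without (two-sided exact permutation test, p = 0.0286). Cre-positive plates lay above Cre-negative plates within each table layout. How many of all genes separate at this threshold was not counted. Thresholds of 50 and 200 CPM gave averages of 46.9% and 58.8% with Cre. The threshold mattered most on Tie1iDLEC 1, where 36.2% of wells lay between 50 and 200 CPM, against 0.896%, 3.18% and 7.04% on the other Cre-positive plates.

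Low wells were not empty of Tie1 to the same degree. The median among wells under 100 CPM was 49.4 CPM on Tie1iDLEC 1 and 11.0 on Tie1Tie2iDLEC 2, the plates with the symbol layout, and 3.01 on Tie1iDLEC 2 and 3.46 on Tie1Tie2iDLEC 1, those with the Ensembl layout. The shares of wells with a read of keratinocyte genes, before thinning, varied between plates but did not follow the layout throughout. On Tie1iDLEC 1 and Tie1Tie2iDLEC 2, Krt5 was read in 20.8% and 12% of LEC wells, Krt10 in 15.1% and 3.23% and Krt14 in 8.33% and 7.33%. On Tie1iDLEC 2 and Tie1Tie2iDLEC 1 these shares were 8.66% and 3.47%, 3.58% and 2.02%, and 10.4% and 1.73%. On the Cre-negative plates (Tie1fl/fl 1 and 2, Tie1Tie2fl/fl 1 and 2), Krt14 was read in 36.3%, 12.2%, 32.4% and 37.8% of LEC wells. Krt5 was read there in 35.5%, 17.5%, 29.6% and 41.5%. The part of such reads in the Tie1 of low wells was not tested.

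Wells that kept Tie1 had less of it than control wells. In wells of at least 100 CPM, median Tie1 was 865 and 1657 CPM in Tie1iDLEC and 1238 and 936 CPM in Tie1Tie2iDLEC, against 2285, 2800, 2669 and 2627 CPM on the Cre-negative plates. The 4 Cre-positive medians (mean 1174 ± 360 CPM, SD, n = 4) all lay under the 4 Cre-negative medians (mean 2595 ± 220 CPM, SD, n = 4). In wells of at least 200 CPM the order was the same, at 1016 to 1700 CPM with Cre and 2287 to 2854 CPM without. How many of all genes separate in this way at either limit was not counted.

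Tek had a different baseline. In the 6 plates in which Tek should be intact, it was undetected or low in most LECs and high in a minority. Median Tek per well was 42.6 and 13.6 CPM in Tie1fl/fl, 47.3 and 3.27 CPM in Tie1iDLEC and 14.4 and 44.8 CPM in Tie1Tie2fl/fl, and 0 on both Tie1Tie2iDLEC plates. Tek was under 100 CPM in 57.6% and 61.4%, in 59.6% and 65.1%, and in 66.7% and 54.8% of the wells of those 3 groups, and in 91.0% and 88.9% of wells in Tie1Tie2iDLEC. LEC classes differed in Tek, as given below, and their mix was not held fixed in these shares. The Tie1Tie2iDLEC plates held 31 of 346 and 38 of 341 wells over 100 CPM of Tek, against 104 to 147 wells on each of the other plates. Such a separation at 100 CPM was not counted over all genes. On these other plates median Tek split by table layout. It was 42.6, 47.3 and 44.8 CPM on plates by gene symbol and 13.6, 3.27 and 14.4 CPM on plates by Ensembl identifier.

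The share of wells without a Tek read after thinning was 89.6% and 81.2% in Tie1Tie2iDLEC, and 23.7%, 42.4%, 24.4%, 58.2%, 42.4% and 26.8% on the other plates (Tie1fl/fl 1 and 2, Tie1iDLEC 1 and 2, Tie1Tie2fl/fl 1 and 2). On the other plates these shares split by table layout, at 23.7%, 24.4% and 26.8% by gene symbol and 42.4%, 58.2% and 42.4% by Ensembl identifier. Median genes per well were 5779.5 to 6847 by gene symbol and 3578.5 to 4979.5 by Ensembl identifier over all plates. The cause of the split was not tested, and the SD of the 6 plates below includes it. Within each layout the Tie1Tie2iDLEC plate had the highest share. The combined deletion averaged 85.4% ± 5.91 (SD, n = 2) against 36.3% ± 13.8 (SD, n = 6) without overlap (two-sided exact permutation test, p = 0.0357, the smallest possible here). Such a separation was common, since 1175 of 19927 genes (5.9%) had a higher share on both Tie1Tie2iDLEC plates than on the 6 others. Against the Tie1Tie2fl/fl plates alone the means were 85.4% and 34.6%, and 2 plates against 2 cannot give a p below 0.33. For Tie1 deletion alone the Tek share was 41.3% in Tie1iDLEC against 33.8% on the 4 Cre-negative plates (exact permutation test, p = 0.533), with overlapping plates. With 15 splits of these plates the test could not give a p under 0.05, so it cannot decide on a shift. Within layouts, Tie1iDLEC was at 24.4% against 23.7% and 26.8% by gene symbol, and at 58.2% against 42.4% and 42.4% by Ensembl identifier.

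**Figure D2:**
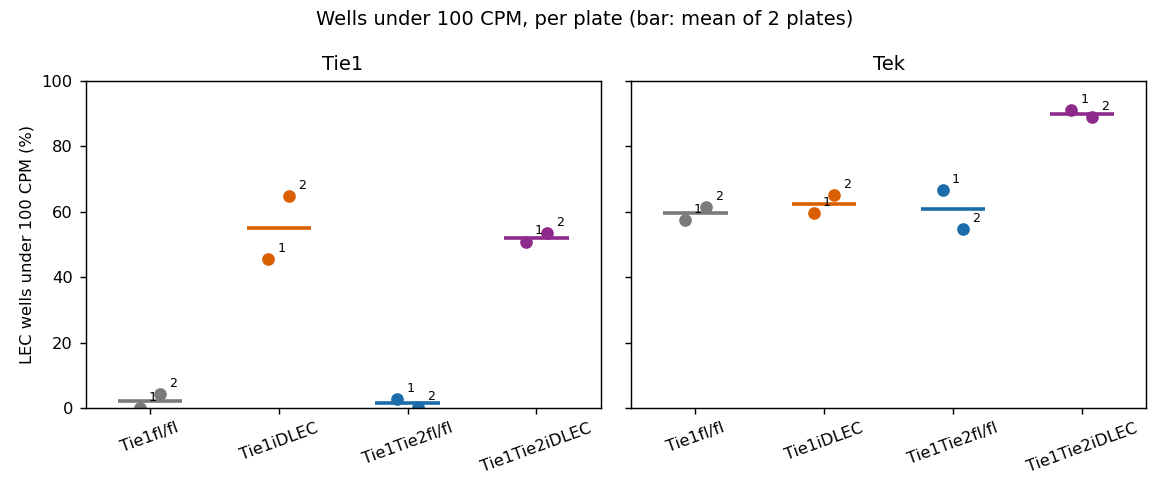
Percent of LEC wells under 100 CPM of Tie1 (left) and Tek (right) on the y axis by group on the x axis, with 1 point per plate and a bar at the mean of 2 plates. For Tie1 both Cre-positive groups lie between 45.5% and 64.8% and the controls at or under 4.15%, and for Tek only Tie1Tie2iDLEC lies above the rest, at 91.0% and 88.9%.

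The Tek wells that remained in Tie1Tie2iDLEC held nearly all of its Tek reads. The tenth of wells with the most Tek reads contributed 99.3% and 95.4% of them, against 54.7% to 62.4% on the 6 other plates. In wells of at least 100 CPM, median Tek was 321 and 304 CPM after combined deletion and 319, 701, 389, 559, 722 and 430 CPM elsewhere, and 1 of the other plates lay between these values. In wells of at least 200 CPM the medians were 354 and 436 CPM after combined deletion (25 and 27 wells) and 464, 756, 449, 621, 808 and 523 CPM elsewhere, without overlap. The share of all genes with such a separation was not counted here either.

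Summed over LEC wells, Tie1 was 2528 ± 472 CPM in Tie1fl/fl, 664 ± 18.2 in Tie1iDLEC, 2647 ± 142 in Tie1Tie2fl/fl and 600.0 ± 210.3 in Tie1Tie2iDLEC (SD, n = 2 each). Tek was 277 ± 87.3, 230 ± 24.6, 297 ± 15.7 and 41.9 ± 12 CPM in the same groups. Tie1 was lower on all 4 Cre-positive than on all 4 Cre-negative plates, as were 449 of 19927 genes (2.25%), and Tek was lower on both Tie1Tie2iDLEC plates than on the 6 others, as were 1381 genes (6.93%). In such sums fewer cells with a gene and less RNA per cell cannot be told apart, which the per-well values above separate. Per kilobase of exon, Tie1 was 8.09 to 9.76 times as high as Tek on the Cre-negative plates, 3.06 and 2.53 times in Tie1iDLEC and 21.5 and 8.58 times in Tie1Tie2iDLEC. The last group, which spread the most, had the fewest Tek reads, at 2154 and 5475 per plate.

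In the edgeR fit over all 8 plates, Tie1 fell in the combined deletion by 2.14 on the log2 scale (SE 0.26, Benjamini-Hochberg adjusted p = 0.00846 over 19927 genes) and Tek fell by 2.83 (SE 0.31, adjusted p = 0.00501 in the edgeR fit). In that comparison 235 genes (1.18%) passed an adjusted p of 0.05, of which 171 (0.858%) were lower, and 1021 (5.12%) passed by DESeq2. In the Tie1 deletion the Tie1 difference was -1.93 (SE 0.26) with an edgeR adjusted p of 0.331 and a DESeq2 adjusted p of 3.88e-06. In that comparison 0 genes (0.0%) passed by edgeR, 843 (4.23%) had an unadjusted p under 0.05 by edgeR and 172 (0.863%) passed by DESeq2. Tek differed by -0.27 (SE 0.29, edgeR adjusted p = 1), and by 0.10 when Tie1fl/fl 2 was left out. Set against each other, the combined deletion lowered Tek further than the Tie1 deletion did (contrast of -2.55 on the log2 scale, SE 0.42). This contrast missed the threshold by edgeR (adjusted p = 0.0940), where 23 genes (0.115% of those tested) were called, all of them lower. It passed by DESeq2 (contrast -2.54, adjusted p = 1.56e-05), where 447 genes (2.24%) were called. For Tie1 this contrast was -0.21 (SE 0.35, edgeR adjusted p = 0.992).

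Joint detection of the 2 transcripts in the same well was counted, which does not measure recombination of the alleles. Tek was under 100 CPM in 54.8% to 66.7% of wells on the plates where it was not deleted. Wells with neither gene are therefore not a count of cells that lost both. In Tie1iDLEC, where only Tie1 was floxed, being over or under 100 CPM of Tie1 said little about a well's Tek. On Tie1iDLEC 1, 64 wells held at least 100 CPM of both genes, 106 of Tie1 alone, 62 of Tek alone and 80 of neither. On Tie1iDLEC 2 these numbers were 42, 76, 75 and 142. Tek was over 100 CPM in 37.6% and 35.6% of the wells with at least 100 CPM of Tie1. Among wells under 100 CPM of Tie1 it was over 100 CPM in 43.7% and 34.6%. The odds ratios were 0.780 and 1.05 (0.5 added to each number of wells). Wells under 100 CPM of Tie1 were deeper on Tie1iDLEC 1 (median 247520 counts against 154612 in its other wells) and not on Tie1iDLEC 2 (224363 against 235347). On Tie1iDLEC 1, 36.2% of wells lay between 50 and 200 CPM of Tie1. The joint counts of that plate therefore cannot tell Tie1 from depth. The level of Tek in Tek wells was also similar. Its median was 375 and 603 CPM in wells with at least 100 CPM of Tie1 and 401 and 546 CPM in wells under that limit.

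In Tie1Tie2iDLEC the 2 genes were found together, and were missing together, more often than the product of their own shares. There were 26 wells with both, 144 with Tie1 alone, 5 with Tek alone and 171 with neither on plate 1, and 29, 130, 9 and 173 on plate 2. Wells with neither gene made up 49.4% and 50.7%. Tek was over 100 CPM in 15.3% and 18.2% of wells with at least 100 CPM of Tie1 and in 2.84% and 4.95% of wells under it. The odds ratios were 5.72 and 4.13. Wells with both made up 7.51% and 8.5%, whereas the product of the 2 genes' own shares was 4.4% and 5.20%. Median counts per well did not separate the classes. They were 183578 and 281654 in wells under 100 CPM of Tie1 and 184424 and 279969 in the other wells. After thinning to 50000 counts the odds ratios were 3.44 and 2.23 in Tie1Tie2iDLEC and 2.07 and 0.895 in Tie1iDLEC. The value of 2.07 rested on 13 wells without a Tie1 read. Wells of a plate are not replicates, so these are descriptions of 2 plates each. In Cre-negative plates almost every Tek well also had Tie1, with 3 and 2 exceptions on Tie1fl/fl 2 and Tie1Tie2fl/fl 1 and 0 on the other plates. Nearly all wells of these plates held Tie1, so this says little about the relation of the genes. Of the 14 and 9 wells under 100 CPM of Tie1 on those 2 plates, 21.4% and 22.2% were over 100 CPM of Tek. Among their wells with Tie1 the shares were 39.3% and 33.7%.

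**Figure D3:**
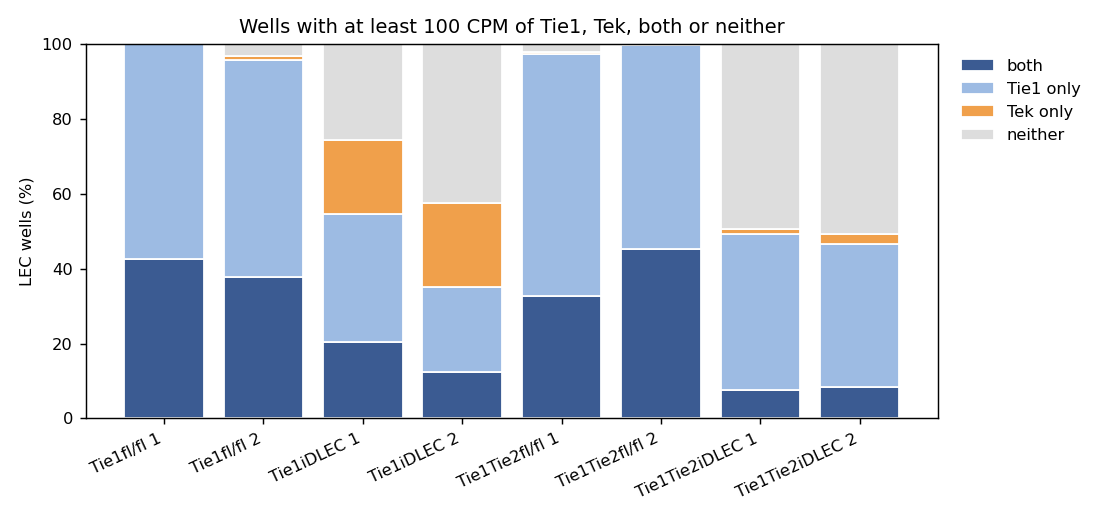
Percent of LEC wells (y axis) with at least 100 CPM of both genes, Tie1 alone, Tek alone or neither, for each of the 8 plates (x axis). Wells with neither gene are at most 3.26% on Cre-negative plates, 25.6% and 42.4% in Tie1iDLEC, and 49.4% and 50.7% in Tie1Tie2iDLEC, where wells with Tek alone are nearly missing.

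The loss of Tie1 was compared among 3 classes of LECs, named from markers after clustering without Tie1, Tek, Angpt2, Prox1, Flt4, Nrp2, Itga9, Kdr, Lyve1, Gata2, Foxc2 and Cldn11. Tie1 was under 100 CPM in 48.0%, 66.0%, 50.5% and 57.1% of capillary-like wells on the 4 Cre-positive plates (Tie1iDLEC 1 and 2, Tie1Tie2iDLEC 1 and 2), in 54%, 69.8%, 38.5% and 50% of collector-like wells, and in 38.2%, 67.6%, 42.9% and 40.0% of valve-like wells. The means were 55.4% ± 8.06, 53.1% ± 13 and 47.2% ± 13.7 (SD, n = 4 each), and exact sign-flip tests within plates gave p = 0.25 to 0.625, where 4 plates cannot give a p below 0.125. Capillary-like wells exceeded valve-like wells by 8.25 percentage points (SD 7.69, higher on 3 of 4 plates), and at resolution 2.0 by 13.3 points (SD 4.87, higher on 4 of 4 plates, exact sign-flip test p = 0.125). The plates of the combined deletion held 13 and 14 collector-like and 14 and 5 valve-like wells, so these class values carry a large counting error. These numbers depended on the clustering, with 75 and 79 collector-like wells at resolution 0.5 and 57 and 49 valve-like wells at resolution 2.0. Class sizes were not compared between genotypes, since the genes that define the classes can themselves differ between them.

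Tek differed between these classes in the 6 plates in which it was not deleted. It was under 100 CPM in 66.7%, 64.4%, 74.5%, 72.8%, 75.6% and 53.8% of capillary-like wells, in 38.8%, 43.1%, 40.0%, 39.6%, 56.6% and 37.2% of collector-like wells, and in 65.0%, 69.2%, 58.8%, 67.6%, 61.1% and 69.0% of valve-like wells (Tie1fl/fl 1 and 2, Tie1iDLEC 1 and 2, Tie1Tie2fl/fl 1 and 2). The collector-like share was the lowest of the 3 classes on each plate. Capillary-like wells exceeded collector-like wells by 25.4 percentage points (SD 7.54, higher on 6 of 6 plates, exact sign-flip test p = 0.0313, Benjamini-Hochberg adjusted p = 0.0469 over 3 pairs). Valve-like wells exceeded collector-like wells on 6 of 6 plates as well, with a collector minus valve difference of -22.6 points (SD 9.83, exact sign-flip test p = 0.0313, adjusted p = 0.0469). Capillary-like and valve-like wells differed by 2.83 points (SD 11.8, exact sign-flip test p = 0.531). With any 1 of the 6 plates left out the smallest possible p is 0.0625, and the adjusted p of both collector comparisons rose to 0.0938.

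Of 24 genes listed for the pathway with both receptors set aside, 23 could be tested (not the adaptor Dok2). The Tie1 deletion changed 0 of the 23 by edgeR, with 2 at an unadjusted p under 0.05 and a median log2 difference of 0.07 against -0.00 for all genes. By DESeq2 1 of the 23 passed there (Angpt2, 1.34 on the log2 scale, adjusted p = 0.0150), where 0.863% of all genes passed. In the combined deletion 1 rose and 1 fell by edgeR, where 1.18% of all genes were called, and 7 of the 23 had an unadjusted p under 0.05, as did 2105 of all genes (10.6%). The median of the list was -0.20 against 0.01 for all genes. Angpt2, the ligand made by endothelial cells, was at 342, 389, 276 and 513 CPM on the Cre-negative plates (Tie1fl/fl, then Tie1Tie2fl/fl), at 870 and 998 CPM in Tie1iDLEC and at 3234 and 2634 CPM in Tie1Tie2iDLEC. Angpt2 rose by 2.90 on the log2 scale in the combined deletion (SE 0.30, edgeR adjusted p = 0.00471), and differed by 1.35 in the Tie1 deletion (edgeR adjusted p = 0.803). Nos3, which encodes endothelial nitric oxide synthase, was at 153, 94.6, 203 and 275 CPM without Cre, at 140 and 75.9 CPM in Tie1iDLEC and at 17.5 and 13.1 CPM in Tie1Tie2iDLEC, and fell by 3.97 on the log2 scale in the combined deletion (SE 0.42, edgeR adjusted p = 0.00471). On both plates of the combined deletion Angpt2 and Nos3 lay outside the range of the 6 other plates. On the lower side alone 1381 of 19927 genes (6.93%) did so, and the upper side was not counted. Ptprb, the phosphatase that acts on Tie2, was at 141 to 229 CPM on all plates and differed by 0.09 and 0.14 in the deletions. Angpt1 and Angpt4, ligands made mainly by cells around vessels, were at most 0.486 and 1.65 CPM, so no fold is given. For the difference between the deletions 0 of the 23 passed by edgeR, with 6 at an unadjusted p under 0.05 (as were 1470 of all 19927 genes, 7.38%). By DESeq2 2 of the 23 passed there (Nos3 and Grb7, both lower), where 2.24% of all genes passed. In the combined deletion 1 rose (Angpt2) and 2 fell (Nos3 and Grb7) by DESeq2, where 5.12% of all genes passed. Grb7, an adaptor that binds Tie2, was at 11.4, 8.91, 28.9 and 20.5 CPM without Cre, 14.2 and 6.24 CPM in Tie1iDLEC and 0 and 0.616 CPM in Tie1Tie2iDLEC.

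In the 10x libraries, from mice with intact genes, cell classes could be compared under 1 protocol. Each library is 1 sample, so differences between treatments have no replicate check, and the intervals below are 95% intervals for counting error only. The libraries held 42337184 (IgG) and 31720670 (Ang2Ab) UMIs, and 3418 and 2961 cells were used after filtering. The classes fitted their markers, with Prox1 in 94.1% to 95.4% of LEC-like and 8.72% to 11.4% of blood endothelial-like cells, Flt1 in 96.5% to 97.7% of blood endothelial-like cells and Pdgfrb in 91.8% to 93.8% of mural-like cells (pericytes and smooth muscle cells). Against their labels, which give males, both libraries held cells with Xist (55.3% and 38.8%) and cells with Y-linked transcripts (34.2% and 45.1%), so values were also taken from cells without Xist. The libraries shared 5 cell barcodes, 2 of them among the kept cells.

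Over the pooled classes Tie1 was higher in lymphatic and Tek in blood endothelial cells. Tie1 was 411 (402 to 421) CPM (here of UMIs) in LEC-like cells of the IgG library and 438 (425 to 452) in those of the Ang2Ab library, against 339 (329 to 349) and 334 (323 to 345) in blood endothelial-like cells. Tek was 114 (109 to 119) and 82.6 (77.0 to 88.4) CPM in LEC-like cells and 224 (216 to 233) and 211 (202 to 220) in blood endothelial-like cells. The intervals of both genes were apart between these pooled classes in each library, but not between all of their subclasses, since Tie1 in blood capillary-like cells (410 and 396) exceeded that in collector-like LECs (324 and 346). The number of Tie1 UMIs per Tek UMI, which does not depend on depth, was 3.61 and 5.31 in LEC-like cells and 1.51 and 1.58 in blood endothelial-like cells. Both UMI counts come from the same cells, but the efficiency of capture of the 2 transcripts may differ, so this quotient was compared only across classes. Clusters 3, 5, 13 and 16 (495, 438, 178 and 104 cells) stayed unnamed and are in none of these classes. In IgG and Ang2Ab their Tek was 174 and 139, 320 and 190, 3.27 and 5.96, and 67.6 and 88.3 CPM. Their Tie1 was 256 and 271, 490 and 373, 11.4 and 11.4, and 286 and 268 CPM.

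Within LECs the genes had different orders. Tie1 was highest in valve-like cells (583 and 578 CPM, IgG and Ang2Ab), followed by capillary-like (489 and 481), collector-like (324 and 346) and proliferating cells (261 and 237), with intervals apart between each pair of neighbours in both libraries. The valve-like class pooled clusters 9 and 14, of which cluster 9 had 669 and 700.2 CPM of Tie1 and cluster 14 454 and 434, less than the capillary-like cells. Tek was at 145 and 99.2 in capillary-like, 111 and 77.2 in collector-like, 87.7 and 81.0 in valve-like and 76.8 and 39.2 in proliferating cells. The order of the first pair turned at resolution 2.0, where Tek was 105 and 75.4 in capillary-like and 171 and 141 in collector-like cells, and at resolution 0.5 it turned in the Ang2Ab library (85.3 and 88.4). In the IgG library the intervals of collector-like (104 to 119) and valve-like cells (77.5 to 98.9) were apart, in the Ang2Ab library they overlapped and the order turned. Valve-like cells had 6.64 and 7.14 Tie1 UMIs per Tek UMI, against 3.38 and 4.85 in capillary-like and 2.91 and 4.48 in collector-like cells. After thinning to 5000 UMIs, Tek was found in 44.5% and 35.8% of capillary-like and in 38.6% and 30.8% of collector-like cells. On the plates, from older mice and another sort, more collector-like than capillary-like wells were over 100 CPM of Tek, and in the 10x libraries the order of these classes depended on the clustering. The order of these 2 classes for Tie1 was also the reverse on the Cre-negative plates (Tie1fl/fl 1 and 2, Tie1Tie2fl/fl 1 and 2). Summed Tie1 there was 2167, 2479, 2396 and 2290 CPM in capillary-like and 2304, 2932, 2723 and 2819 in collector-like wells. Valve-like wells were highest there too, at 3338, 3589, 3654 and 3243 CPM.

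Among the named blood vessel classes Tek was highest in arterial-like cells (327 and 308 CPM) and next in venous-like cells (250.1 and 275.9), whose intervals were apart in the IgG library and overlapped in the Ang2Ab library (281 to 336 and 253 to 300.5). The venous-like class pooled clusters 10 and 11, with Tek at 282 and 354 CPM in cluster 10, above the arterial-like cells in the Ang2Ab library, and at 229 and 212 in cluster 11. Blood capillary-like cells had less Tek, at 184 and 160, but still more than any LEC class at resolution 1.0. Cluster 2, a part of this class, had 168 and 139, about the level given above for collector-like LECs at resolution 2.0. Tie1 had another order, at 410 and 396 in blood capillary-like, 373 and 360 in arterial-like and 263 and 234 in venous-like cells, and the first pair overlapped in both libraries. Tie1 UMIs per Tek UMI were therefore lowest in venous-like (1.05 and 0.847) and arterial-like cells (1.14 and 1.17) and higher in blood capillary-like cells (2.23 and 2.48).

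**Figure D4:**
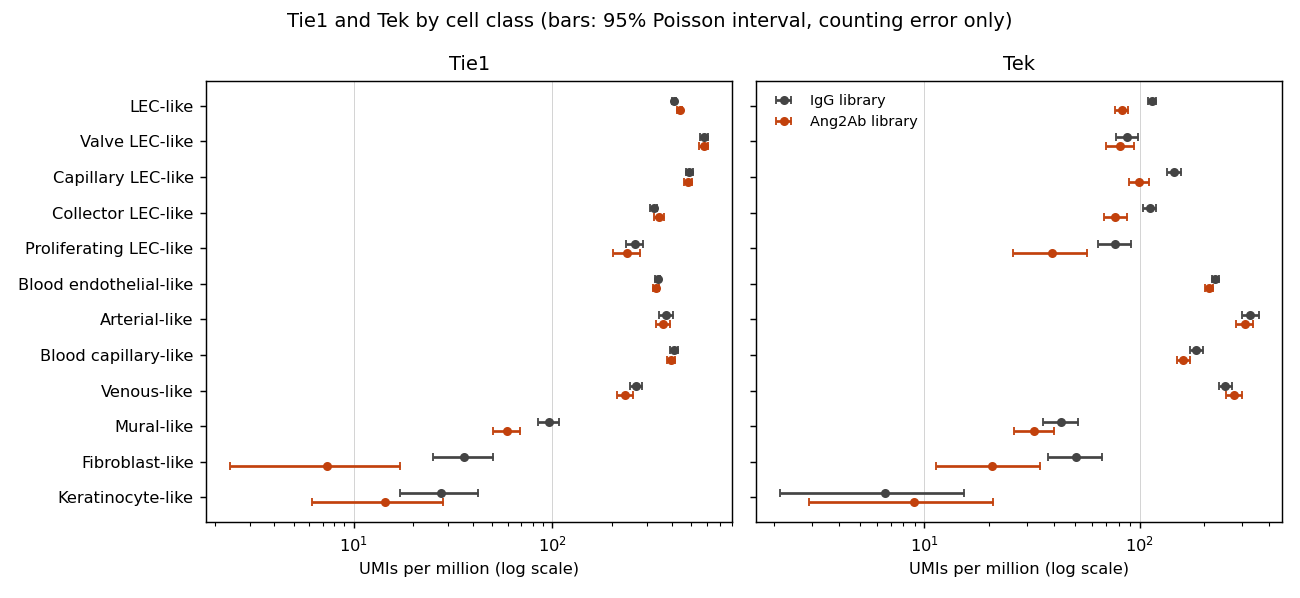
Tie1 (left) and Tek (right) by cell class (y axis), in CPM on a log scale (x axis), with 1 point per library and bars for the 95% Poisson interval. Of the pooled classes, Tie1 is highest in valve-like LECs, at 583 and 578 CPM, and Tek in arterial-like cells, at 327 and 308.

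Mural-like cells had lower values, most of which came from a few cells. Tie1 was 96.2 (84.8 to 109) and 58.9 (50.1 to 68.8) CPM and Tek 43.2 (35.7 to 51.9) and 32.4 (26.0 to 39.9). The tenth of mural-like cells with the most UMIs of the gene held 68.4% and 73.1% of the Tie1 UMIs and 65.2% and 83.0% of the Tek UMIs. Those with a Tie1 UMI had a median of 52 and 35 UMIs of 5 endothelial genes (Cdh5, Pecam1, Egfl7, Emcn and Flt1), and those without had 1 and 1. In the 121 and 166 mural-like cells with fewer than 5 such UMIs, a limit chosen after the values were seen, Tie1 was 6.93 and 7.81 and Tek 6.07 and 3.25 CPM, from 5 to 12 UMIs. Keratinocyte-like cells, which should lack both genes, had 27.7 and 14.4 of Tie1 and 6.58 and 8.97 of Tek in CPM.

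Fibroblast-like cells had 50.5 and 20.6 CPM of Tek, against 43.2 and 32.4 in mural-like cells, and without cells that held Xist 9.70 and 6.00 against 34.5 and 26.7. Among the 40 and 37 fibroblast-like cells with fewer than 5 endothelial UMIs, Tek was 38.0 and 23.4 CPM, from 27 and 14 UMIs, and Tie1 5.62 and 3.34, from 4 and 2 UMIs. They had 0.714 and 0.357 Tie1 UMIs per Tek UMI in all cells of the class, the lowest quotients of the classes named here. They numbered 49 and 40 cells, and the Tek UMIs were in 17 and 5 of them, so the value rests on few cells.

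Detection was compared after each cell had been thinned to 5000 UMIs, which left out shallower cells (124 and 90 LEC-like, 268 and 303 blood endothelial-like). A Tie1 UMI was then found in 85.1% and 85.8% of LEC-like and 77.4% and 76.3% of blood endothelial-like cells, and in 6.45% and 9.52% of keratinocyte-like cells. Tek was found in 39.1% and 30.9% of LEC-like, 64.1% and 59.9% of blood endothelial-like and 6.45% and 0% of keratinocyte-like cells, where the last share is 0 of 21 cells and allows up to 16.1% (exact binomial interval). Before thinning, Tek was found in 61.7% and 52.9% of LEC-like and 78.5% and 74.7% of blood endothelial-like cells, at median depths of 11917, 11283, 8976 and 7770 UMIs, and in 12.8% and 9.68% of keratinocyte-like cells at 11172 and 11989. The detection of both genes in the same endothelial cell was also counted. Among LEC-like cells with Tie1, 39.3% and 30.6% had Tek, and among those without Tie1, 37.8% and 32.7%, with odds ratios of 1.06 and 0.905. In the Ang2Ab library that ratio was 1.46 after thinning to 2500 UMIs and 1.5 with at most 5% mitochondrial UMIs. It was 1.77 without the top doublet scores and 1.92 without cells that held Xist. Each setting drew a new random thinning, so a filter and its draw cannot be told apart here. Without the top doublet scores 194 of 672 cells held both genes, against 181 of 689 with them, which removal of cells alone cannot give. For blood endothelial-like cells the odds ratios were 1.31 and 0.867, and 1.14 and 1.19 in the draw without the top doublet scores, so no difference between the 2 libraries is read from them. The odds ratios of mural-like cells were 6.40 and 4.12 and came from only 10 and 7 cells with both genes.

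Ang2-blocking antibody and IgG libraries were compared by ratios of CPM. In LEC-like cells Tek was lower in the Ang2Ab library, at a ratio of 0.725 (0.667 to 0.786), while Tie1 was at 1.07 (1.03 to 1.11). Among 10798 genes in LEC-like cells 20.0% had a ratio under 0.8 or over 1.25, and the Tek ratio lay at the 5.70 percentile and the Tie1 ratio at the 66.4 percentile. Without cells that held Xist, the Tek ratio was 0.758 (0.672 to 0.853) and the Tie1 ratio 1.11 (1.05 to 1.17). By class, the Tek ratio was 0.686 (0.603 to 0.779) in capillary-like, 0.693 (0.602 to 0.796) in collector-like, 0.924 (0.760 to 1.12) in valve-like and 0.510 (0.324 to 0.779) in proliferating LECs, so that only the valve-like interval included 1 among these 4. These class ratios are from resolution 1.0. At resolution 2.0, Tek was also lower in the Ang2Ab library in capillary-like and collector-like cells, at the levels given above. The collector-like levels differed there by a smaller factor than at resolution 1.0. The mix of LEC classes, which differed between the libraries, was not held fixed in the pooled ratios. The part of the treatment in all these ratios cannot be told apart from that of the library.

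Blood endothelial-like cells had a Tek ratio of 0.939 (0.888 to 0.993) and a Tie1 ratio of 0.985 (0.942 to 1.03), where 14.4% of 10287 genes lay outside 0.8 to 1.25. The Tek ratio was 1.03 without cells that held Xist. It was 0.869 (0.789 to 0.957) in blood capillary-like, 0.941 (0.828 to 1.07) in arterial-like and 1.10 (0.986 to 1.23) in venous-like cells. In mural-like cells the ratios were 0.612 (0.499 to 0.749) for Tie1 and 0.75 (0.561 to 0.998) for Tek, where 20.1% of 6932 genes lay outside those limits. They moved to 0.202 and 0.369 when the 5% of cells with the highest doublet scores were removed, and Tie1 to 0.930 without cells that held Xist, so no direction is read from them.

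**Figure D5:**
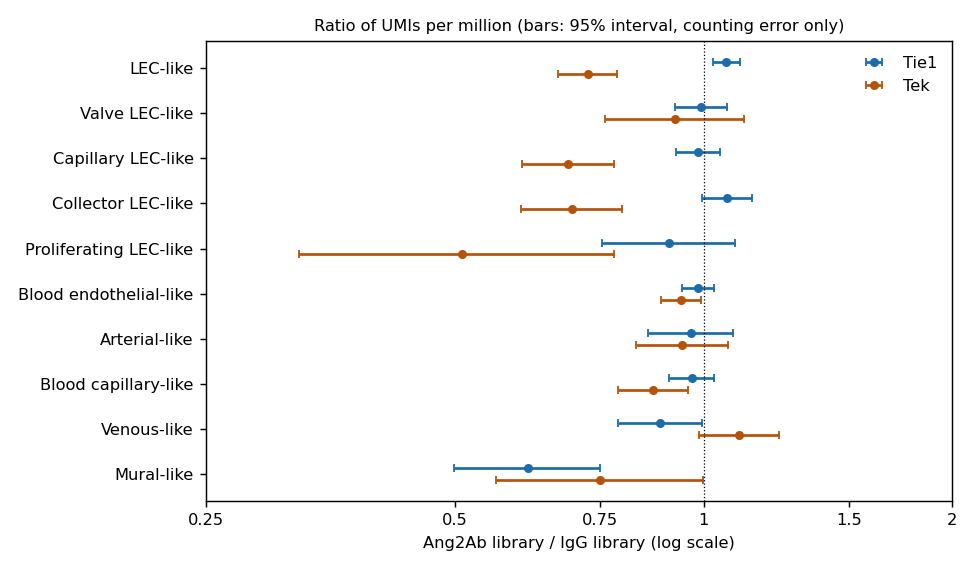
Ratio of CPM in the Ang2Ab to the IgG library (x axis, log scale) for Tie1 and Tek by cell class (y axis), with 95% intervals for counting error and a dotted line at 1. At resolution 1.0, Tek lies under 1 in capillary-like, collector-like and proliferating LECs (0.686, 0.693 and 0.510), and Tie1 stays near 1 in the LEC classes.

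The genes whose levels followed each receptor most closely were sought over 20 cell clusters of the 10x libraries and 11810 genes, by Pearson correlation of log2(CPM + 1). For Tie1 these were Egfl7, a secreted endothelial protein (r = 0.976), Rgl2 (0.967), Rasgrp3, an activator of RAS (0.966), Arhgap29, a RhoGAP (0.959), and Parvb, a parvin of focal adhesions (0.956). For Tek they were Tm6sf1 (0.960), Tmem44 (0.95), Card10 (0.949), Slc25a30 (0.948) and Gbp9 (0.946). The lists shared 0 genes, and Tie1 and Tek correlated with each other at r = 0.776. Egfl7, Rgl2, Tmem44, Card10 and Gbp9 were highest in cluster 5, an unnamed cluster of shallow cells (median 1278.5 UMIs). Clusters share their libraries, so these values are descriptions.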

How the data were processed

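Gene-level read counts per well of 8 Smart-seq plates and UMI counts per cell of 2 10x libraries were used as deposited by the authors, who named TopHat2 2.1.1, SAMtools 0.1.18, featureCounts, Cell Ranger 2.1.1, R 3.5.1 and Seurat in their processing notes (builds GRCm38 and mm10); the 10x file headers name another Cell Ranger version. All values below were computed from those counts.

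The 42612 genes found in both table layouts were joined by gene symbol, after Ensembl identifiers had been turned into symbols. Wells with at least 1000 genes were clustered (scanpy 1.11.5, leidenalg 0.10.2, 2000 variable genes, 30 components, resolution 1.0) without 12 genes (Tie1, Tek, Angpt2, Prox1, Flt4, Nrp2, Itga9, Kdr, Lyve1, Gata2, Foxc2 and Cldn11; most class markers stayed in), and wells not named fibroblast-like or keratinocyte-like were kept as LECs. Cells of the 10x libraries needed at least 500 genes and at most 10% mitochondrial UMIs. A cluster was named when at least 3 markers of a list were raised 1.5-fold, a rule set on these data. Scrublet marked 20 (0.582%) and 2 (0.0675%) cells, which were removed; a share as low as the second shows that it had not worked there, so removal of the top 5% of scores was an alternative.

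Counts were summed per plate and tested with edgeR 4.0.16 (quasi-likelihood, TMM, filterByExpr, 4 groups, Benjamini-Hochberg over 19927 genes, threshold 0.05) in R 4.3.3, with DESeq2 1.42.0 as an alternative. Shares of wells without a gene were tested by exact permutation over plates and class differences by exact sign-flip (scipy 1.17.1). Poisson and binomial intervals cover counting error only. Named genes were Tie1 and Tek, the called genes, ligands and phosphatase of the pathway list, and the 5 genes with the most similar levels over clusters of at least 50 cells. The members and all lists were chosen with earlier results of these data known.

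On simulated counts of 19343 genes the edgeR fit recovered 0%, 31.3% and 43.9% of genes changed by 1, 2 and 3 log2 units in the Tie1 comparison and 4.48%, 41.8% and 45.5% in the combined comparison, with 3 and 1 unchanged genes called.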

Additional observations from a re-analysis of the deposited data

How the results depend on the processing

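Of 304 values under alternatives for 37 results, 227 kept their direction, call and approximate size, and 4 turned direction. Where no cause is given it was not tested. By DESeq2 and without a filter on low counts, Tie1 passed in the Tie1 deletion (-1.94, adjusted p = 3.88e-06, and -1.92, adjusted p = 6.18e-10) and so did the Tek contrast between the deletions (-2.54, adjusted p = 1.56e-05, and -2.53, adjusted p = 1.31e-06), against adjusted p values of 0.331 and 0.0940 by edgeR. Genes called were 172 and 268 in the Tie1 deletion, 1021 and 1185 in the combined deletion and 447 and 618 for the contrast, against 0, 235 and 23 by edgeR.

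Leaving out 1 plate at a time gave Tie1 differences of -2.10 to -1.72 in the Tie1 deletion and -2.59 to -1.82 in the combined deletion, where the edgeR adjusted p rose to 0.0749 without Tie1Tie2fl/fl 1 (difference -2.08). Tek ranged from -0.56 to 0.10 in the Tie1 deletion, the last without Tie1fl/fl 2, from -3.15 to -2.60 in the combined deletion and from -2.94 to -2.27 for the contrast. The Tie1 contrast ranged from -0.66 to 0.10, the last without Tie1Tie2iDLEC 2. Called genes ranged over 0 to 0, 91 to 219 (91 without Tie1Tie2fl/fl 1) and 4 to 21 (4 without Tie1fl/fl 1 or without Tie1Tie2fl/fl 1).

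Plates of the same replicate number in a strain correlated at r = 0.111 (Tie1) and 0.0905 (Tie1Tie2), and were not taken as pairs. With 2 plates per group both pairs of a strain give the same r by construction, so each strain has 1 value. Such plates shared table layout and labelled sex, and the permutation tests over plates did not use the pairs. With the plate pair as a replicate block, 14 genes were called for the contrast (23 without), 186 in the combined deletion and 0 in the Tie1 deletion, and no call of Tie1 or Tek changed (Tie1 -1.92 and -2.19, Tek -0.24 and -2.85).

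The excess of wells without Tie1 ranged from 23.6 to 39.5 percentage points with 1 plate left out, and the p was 0.0571 without any 1 control plate. It was 14.7 points without thinning (exact permutation test, p = 0.143), where Tie1iDLEC 1 had 0 such wells and joint detection in Tie1iDLEC could give no value. That of Tek ranged from 44.9 to 53.5 points (exact permutation test, p = 0.143 without either Tie1Tie2iDLEC plate). The gain in Tek wells among Tie1 wells of Tie1Tie2iDLEC, 10.5 points, was 13 and 11.8 at 20000 and 100000 counts, 9.66 without thinning, 12.8 for 3 reads or more, and 12.9, 12.5 and 9.22 at 100, 50 and 200 CPM. It ranged from 9.97 to 11.0 by plate, and in Tie1iDLEC from -2.73 to 14.7.

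Between classes, Tie1 differences ranged by plate over -0.897 to 5.14 (capillary minus collector, the lowest without Tie1Tie2iDLEC 1), 5.29 to 11.5 (capillary minus valve) and 2.62 to 9.34 (collector minus valve, -9.65 at resolution 2.0), and Tek differences over 23.6 to 27.2, 0.259 to 6.43 and -26.2 to -20.7, none of them past an adjusted p of 0.05 with 5 plates. At resolution 0.5 no plate cluster was named capillary-like.

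Of the LEC-like, blood endothelial-like and mural-like classes, mural-like cells moved most in mean level over the 2 10x libraries. Tie1 there was 107 with at most 5% mitochondrial UMIs, 30.1 without the top doublet scores, 58.5 without Xist cells and 7.37 with fewer than 5 endothelial UMIs, and Tek 48.9, 13.5, 30.6 and 4.66. In LEC-like cells Tie1 was 382 at most 5% mitochondrial UMIs and Tek 93.1 without Xist cells, and in blood endothelial-like cells Tie1 was 333 and Tek 223 without Xist cells, Tie1 326 at resolution 2.0 and Tek 210.0 at resolution 0.5. Among subclasses, Tek was higher in capillary-like than in collector-like LECs at resolution 1.0 and lower at resolution 2.0 (105 and 75.4 against 171 and 141). Thinned to 2500 UMIs, the shares of cells with Tie1 and Tek were 63.3% and 21.3% (LEC-like), 56.4% and 42.1% (blood endothelial-like) and 11.6% and 6.47% (mural-like), since fewer UMIs were sampled. Without Xist cells the ratios were 1.11 for Tie1 in LEC-like, 1.04 and 1.03 for Tie1 and Tek in blood endothelial-like and 0.930 for Tie1 in mural-like cells. Mural-like ratios were 0.202 (Tie1) and 0.369 (Tek) without the top doublet scores and 1.08 (Tek) with at most 5% mitochondrial UMIs. The alternatives in CPM and those by endothelial UMIs were chosen after seeing the data.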
